A study of Mus musculus with 2 samples.

Results

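The cells described here are the blood endothelial cells of the mouse dura, taken as all cells that the authors' deposited metadata place in cluster 8. There were 487 of them among 12544 annotated cells, 261 of 5950 in the heterozygous library (het) and 226 of 6594 in the knockout library (KO). The study used droplet single-cell RNA sequencing on the dura, the outermost of the membranes that cover the brain, from mice at postnatal day 14, and set animals that lack the cytokine IL-33 against animals that keep it. Het mice were Il33mcherry/+ and KO mice were Il33mcherry/mcherry, so every animal carried at least 1 copy of an H2B-mCherry allele at Il33 and no group without that allele is analysed here. Each genotype is 1 library made from tissue of several mice pooled by sex. Total viable cells were mixed before loading with extra lymphocytes (gated CD45+CD11b-) and extra stroma (gated gp38+CD31-). Endothelial cells carry CD31 and lack CD45, so neither of these gates should hold them. With 1 library per genotype no test between genotypes can be made, and differences of genotype, animals, sort and library preparation cannot be told apart.

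Blood endothelial cells line arteries, capillaries and veins and change their gene set along that path. Vessels within the brain form the blood-brain barrier, with sealed junctions and dedicated transporters, whereas most dural vessels lie outside that barrier and many are fenestrated, that is, pierced by pores spanned by diaphragms of the protein PLVAP. IL-33 is a nuclear cytokine of barrier and stromal cells that acts on cells bearing its receptor ST2 (Il1rl1).

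Cluster 8 held 2591770 unique molecular identifiers (UMIs, counted transcript molecules) in het and 2132769 in KO, with a median of 8394 and 8395 UMIs and 2918 and 2893.5 genes per cell. Median mitochondrial share was 5.96% and 5.78% of UMIs. The deposited sex label equalled the presence of a UMI of Xist in 487 of 487 cells, so a female cell in which Xist was missed would carry the male label. It gave 138 female and 123 male cells in het, and 104 female and 122 male cells in KO. The 2 matrices shared 36 barcodes, and 0 of them were cluster 8 cells in both libraries. Levels are given as CPM: a gene's UMIs were added up over a library's cluster 8 cells, then divided by all UMIs of those cells and scaled, so that values are comparable between libraries. Ratios are KO over het. The range after a value is its 95% interval, which covers counting error only and not the spread between animals. For a gene each UMI counts as an independent draw, so the spread between cells is left out as well. Comparisons within female and within male cells are given beside them, although both sexes of a genotype shared 1 library preparation.

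The endothelial label held for the cells of both libraries. Plvap, which encodes the diaphragm protein of fenestrae, stood at 1262 CPM in het against 1303 in KO and was detected in 83.9% and 82.7% of cells. Ptprb, the phosphatase that acts on the receptor TIE2, stood at 1219 and 1198 CPM. Flt1, a receptor of VEGF, stood at 1269 and 1096 CPM, and Emcn, the surface sialomucin endomucin, at 1218 and 1211. Cldn5, the main claudin of endothelial tight junctions, stood at 1118 and 1351 CPM but was detected in fewer cells, 60.9% and 65.0%. In B cell-like cluster 1, used as background for free RNA at median depths of 3934.5 and 4178 UMIs, Plvap was detected in 0.155% and 0.603% of cells. Of the 17 pan-endothelial markers listed, 16 were higher in cluster 8 than in the other 21 clusters in both libraries. The exception was Erg, an ETS factor, which stood at 129 and 117 CPM here and at 218 and 227 CPM in cluster 16. Because the clustering used these genes, this is a description of the class and not a test of it.

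**Figure D1:**
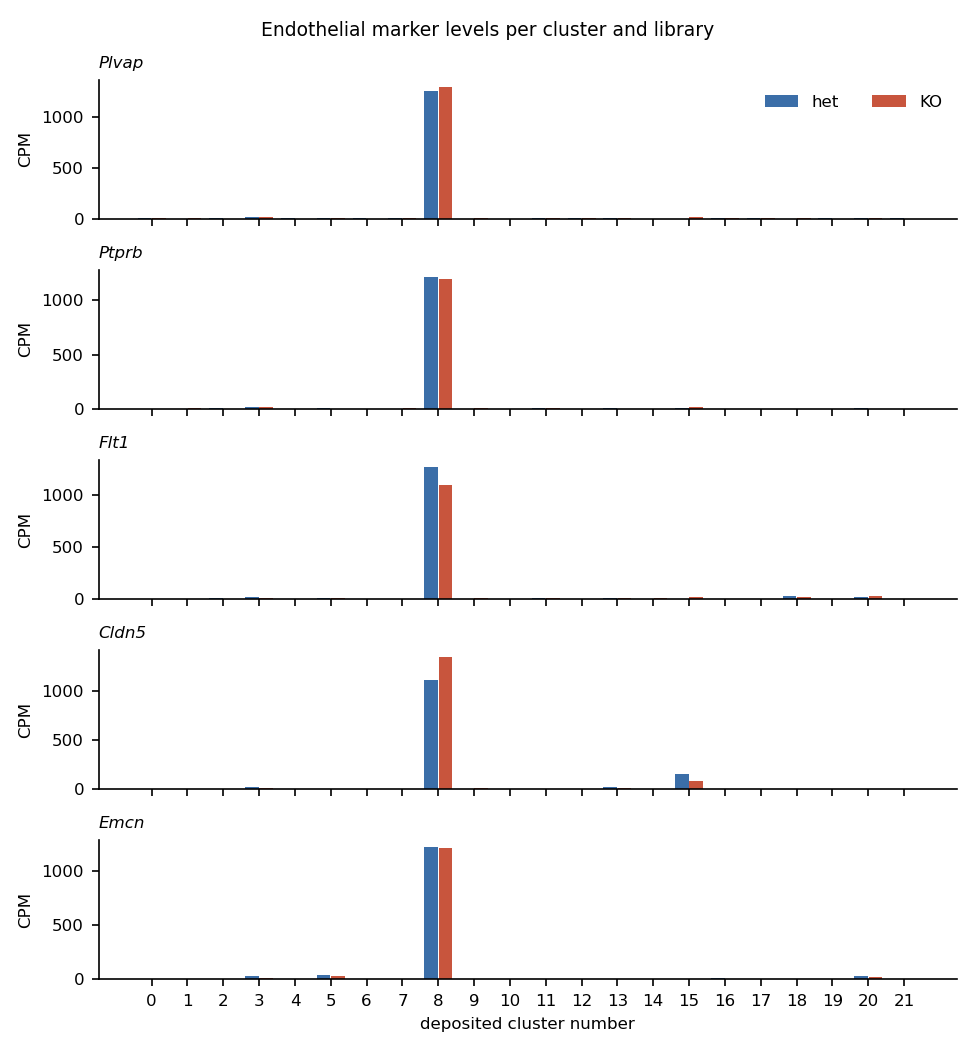
Summed levels (CPM, linear axes from 0) of Plvap, Ptprb, Flt1, Cldn5 and Emcn in each of the 22 deposited clusters, with het in blue and KO in red. Cluster 8 stands alone for each gene in both libraries, with Cldn5 at 157 and 80.6 CPM in cluster 15 as the nearest second value of the 5.

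The 10 genes that led cluster 8 by fold over all other annotated cells were Ptprb, Plvap, Fabp4, Flt1, Cldn5, Emcn, Clec14a, Gpihbp1, Vwf and Esam, from 156-fold for Ptprb to 85.9-fold for Esam, with 5 CPM added to both sides. Fabp4, a fatty acid binding protein, had the highest level of the 10, 1891 CPM over both libraries. Gpihbp1, which anchors lipoprotein lipase to the capillary wall, stood at 585 CPM against 0.97 in all other cells. Further genes of fixed endothelial lists were highest here as well. These included 10 of 17 measured genes of BMP and TGF-beta signalling, among them the receptors Eng and Acvrl1, and 12 of 20 of the blood-brain barrier and WNT list, among them the glucose transporter Slc2a1 and the WNT receptor Fzd4. The flow-responsive factors Klf2 and Klf4 were also highest in cluster 8 in both libraries, at 1802 and 1950 CPM for Klf2 and 867 and 849 CPM for Klf4.

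The cells were not uniform. Clustering of the 487 cells alone gave 9 sub-clusters. It used gene levels of the same cells, so the genes that mark a sub-cluster describe it and do not test it. The clearest was sub-cluster 5, which was arterial-like. In it, 13 of 13 measured arterial markers were at least 2-fold above the other cluster 8 cells in both libraries. Gja5, a connexin of arterial endothelium, stood at 179 CPM in het against 224 in KO there, and at 14.1 CPM or less in every other sub-cluster. Sema3g, a secreted semaphorin, stood at 449 and 402 CPM. Of the Notch list, 6 of 10 measured genes were at least 2-fold higher there over the pooled libraries, including the ligands Dll4, Jag1 and Jag2 and the target Hey1 (206 and 246 CPM). Of these, Dll4, Jag1 and Hey1 are in the arterial list as well. The chemokine Cxcl12 was concentrated in the same cells, at 2459 and 2464 CPM against 770 and 680 in sub-cluster 1. Its 58 cells, 31 het and 27 KO, were recovered as 58 of 58 under each of the 3 other clustering settings, as were the 21 and 8 cells of sub-clusters 7 and 9. The other groups were less stable. Of the 67 cells of sub-cluster 3 the best match held 31, 37 and 37, and of the 74 of sub-cluster 2 it held 62, 74 and 46. At resolution 0.3 sub-clusters 1, 4 and 6 fell into 1 group of 265 cells. At that resolution sub-clusters 2, 3 and 8 had their best match in 1 group of 107 cells. Without cell cycle genes sub-clusters 2 and 8 had theirs in 1 group of 60 cells. The adjusted Rand index, which is 1 for equal groupings, was 0.40, 0.74 and 0.75 for resolutions 0.3 and 0.8 and for clustering without cell cycle genes, so values by sub-cluster depend on the grouping used.

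Sub-cluster 2 (74 cells) was venous-like, with 9 of 11 measured venous markers at least 2-fold above the rest in both libraries. The adhesion genes were concentrated there. Selp, which encodes P-selectin, stood at 754 CPM in het against 756 in KO, and Vcam1, a ligand of leukocyte integrins, at 603 and 641. Both libraries therefore held nearly equal levels of these 2 genes within the venous-like cells. All 8 macrophage markers were also at least 2-fold higher in this sub-cluster over the pooled libraries, and 13 of its 74 cells held UMIs of at least 3 immune markers. The part of those cells in its levels was not tested.

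Sub-cluster 3 (67 cells, 39 het and 28 KO) was led by Slco1c1, Car4, Slc16a1, Slc38a5 and Pglyrp1, of which Slco1c1 carries thyroxine and Slc16a1 carries monocarboxylates across brain endothelium. Of the blood-brain barrier and WNT list, 16 of 20 measured genes were at least 2-fold higher there in both libraries. Slc2a1 reached 1188 CPM in het against 1340 in KO, against 104 or less in every other sub-cluster, and Mfsd2a, the lipid transporter that limits transcytosis in brain capillaries, reached 158 and 295 CPM. These cells had the highest Cldn5, 3925 and 5612 CPM, and low Plvap, 280 and 141 CPM. The barrier genes were not in all of the 67 cells: Slc38a5 was detected in 52, Slco1c1 in 27 and Mfsd2a in 26. The sub-cluster also had 3 of 11 measured venous markers at least 2-fold higher in both libraries, namely Ackr1, Vwf and Adgrg6. None of its 5 leading genes is in the venous list, and no list fixed for naming covers barrier cells, so the sub-cluster is left unnamed. Over single cells, Plvap and Cldn5 ran opposite to each other, with Pearson r = -0.63 over 261 het cells and -0.67 over 226 KO cells. The cells of a library share its preparation and differ in depth, so this is a description. Slco1c1 was detected in 19 het cells, of which 18 also had Cldn5 and 4 had Plvap, and in 14 KO cells, of which 14 had Cldn5 and 1 had Plvap.

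The largest group, sub-cluster 1 (125 cells), had Esm1, Gm12002, Thrsp and Ramp3 among its 5 leading genes. It had the highest Plvap, 2701 and 2455 CPM, and 4 of 10 measured capillary markers at least 2-fold higher, namely Rgcc, Gpihbp1, Kdr and Rbp7. Rgcc, a cell cycle regulator abundant in capillaries, stood at 1710 and 1575 CPM. None of its 5 leading genes is in the capillary list, and the group is given by number. Sub-cluster 8 (14 cells) was led by Igfbp5, Ackr3, Calcrl, Vwf and Lbp, with Vwf, the clotting factor stored in endothelial granules, at 5213 and 4731 CPM. It had 3 of 11 venous markers, 2 of them in both libraries, and is also given by number.

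In the other sub-clusters the first leading genes came from few cells or from other cell types. Sub-cluster 4 (63 cells) was led by mast cell proteases such as Mcpt4, of whose 755 UMIs 735 came from 1 cell. Among genes with a UMI in at least 20% of its cells, a rule chosen after the values were seen, Kit led. Sub-cluster 6 (57 cells) was led by Ccl21a and Lyve1, from 2 and 3 cells, ahead of C1qtnf9. Other genes higher there were widely detected, with Gpihbp1 in 50 of its cells and N4bp3 in 38. It had 4 of 10 measured capillary markers and 4 of 10 lipid handling genes at least 2-fold higher, 2 of each in both libraries. Gpihbp1 and Fabp4 count in both lists. None of the sub-cluster's 5 leading genes is in the capillary list, and it is given by number. Of 11 lymphatic markers, at least 5 were detected in 2 KO cells and 0 het cells, so lymphatic endothelium is all but absent from cluster 8. Sub-cluster 7 (21 cells) had 12 of 12 cycling markers together with 5 of 5 measured B lineage and 5 of 5 leukocyte markers at least 2-fold higher. Sub-cluster 9 (8 cells) had 7 of 7 measured fibroblast markers. The last 2 had the highest median Scrublet scores of the 9, 0.136 and 0.249, a measure of likeness to simulated doublets.

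**Figure D2:**
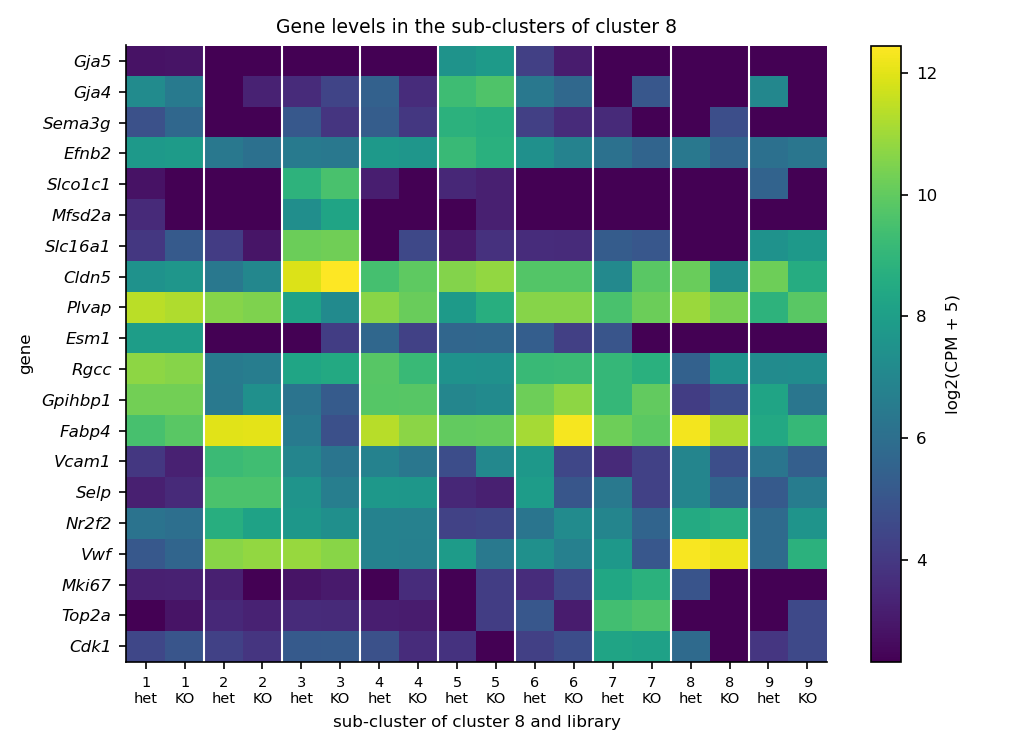
Levels, as log2(CPM + 5), of 20 genes (rows) in the 9 sub-clusters of cluster 8, each split into its het and KO cells (columns). The genes were chosen after their values were seen: Gja5 and Sema3g stand out in sub-cluster 5, Slco1c1 and Mfsd2a in 3, Selp and Vcam1 in 2, and Mki67 and Top2a in 7, in both libraries.

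Cluster 8 made up a smaller share of annotated cells in KO, 3.43% (3.00 to 3.90) against 4.39% (3.88 to 4.94) in het, a ratio of 0.781 (0.651 to 0.937). The ratio was 0.771 in female and 0.797 in male cells. The sort bears on this share, since sorted lymphocytes and stromal cells were added. The annotation bears on it too. Cluster 8 cells were counted together with unannotated barcodes that held at least 5 of 17 pan-endothelial markers. Of these, 28.3% in het and 34.5% in KO were unannotated. Among cells outside the lymphoid and stromal clusters the shares were 13.8% in het against 12.4% in KO, giving a ratio of 0.900 (0.750 to 1.08). Per cell of cluster 20, the mural cells that wrap vessels, there were 4.28 endothelial cells in het against 4.04 in KO, giving a ratio of 0.943. Of the cells of clusters 8 and 20 together, 81.1% in het and 80.1% in KO were endothelial, and the interval of that ratio, 0.824 to 1.19, included 1.

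The make-up of the cluster was close in the 2 libraries. Sub-cluster 1 held 26.4% of het and 24.8% of KO endothelial cells, sub-cluster 3 held 14.9% and 12.4%, and arterial-like sub-cluster 5 held 11.9% in each. Every ratio of sub-cluster shares over both sexes had an interval that included 1. Sub-cluster 7 had 15 het and 6 KO cells and a ratio of 0.462 (0.147 to 1.26), and sub-cluster 8 had 9 and 5 cells and a ratio of 0.642 (0.169 to 2.13). Sub-clusters 4 and 6 went the other way, with ratios of 1.35 (0.801 to 2.30) and 1.48 (0.849 to 2.60). In the venous-like sub-cluster 2 the sexes went opposite ways. Female cells numbered 27 in het against 9 in KO, giving a ratio of 0.442 (0.183 to 0.969), whereas male cells numbered 13 and 25, a ratio of 1.94 (0.955 to 4.13). The difference between the sexes was not tested.

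**Figure D3:**
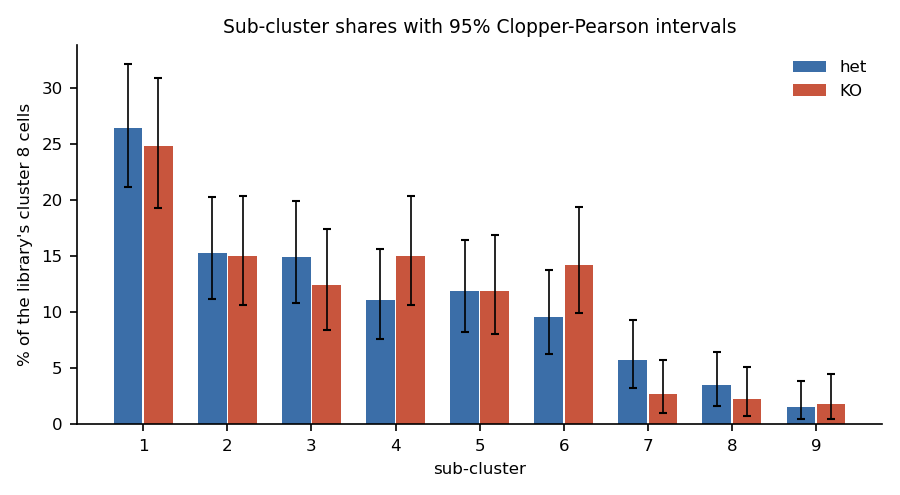
Share of each library's cluster 8 cells in the 9 sub-clusters (bars from 0, het in blue, KO in red) with exact 95% Clopper-Pearson intervals as error bars, which cover counting error only. The intervals of the 2 libraries overlap in every sub-cluster.

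Across the transcriptome the 2 libraries were close. Of 10520 genes with at least 20 UMIs over both libraries, 533 (5.07%) were at least 1.5-fold higher in KO and 713 (6.78%) at least 1.5-fold lower, with a median log2 ratio of -0.01. Of the 6194 genes with at least 100 UMIs, 75 (1.21%) were higher and 120 (1.94%) lower by that measure. Among all measured genes 51.6% had a ratio below 1 and 48.4% above. A ratio below 1 in both sexes was found for 26.5% and above 1 in both for 23.6%. The lists below are read beside these shares. Of the 22 pathway lists, 20 had a median between -0.16 and 0.09 on the log2 scale, and the medians of the cell cycle and lipid handling lists lay outside that range.

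**Figure D4:**
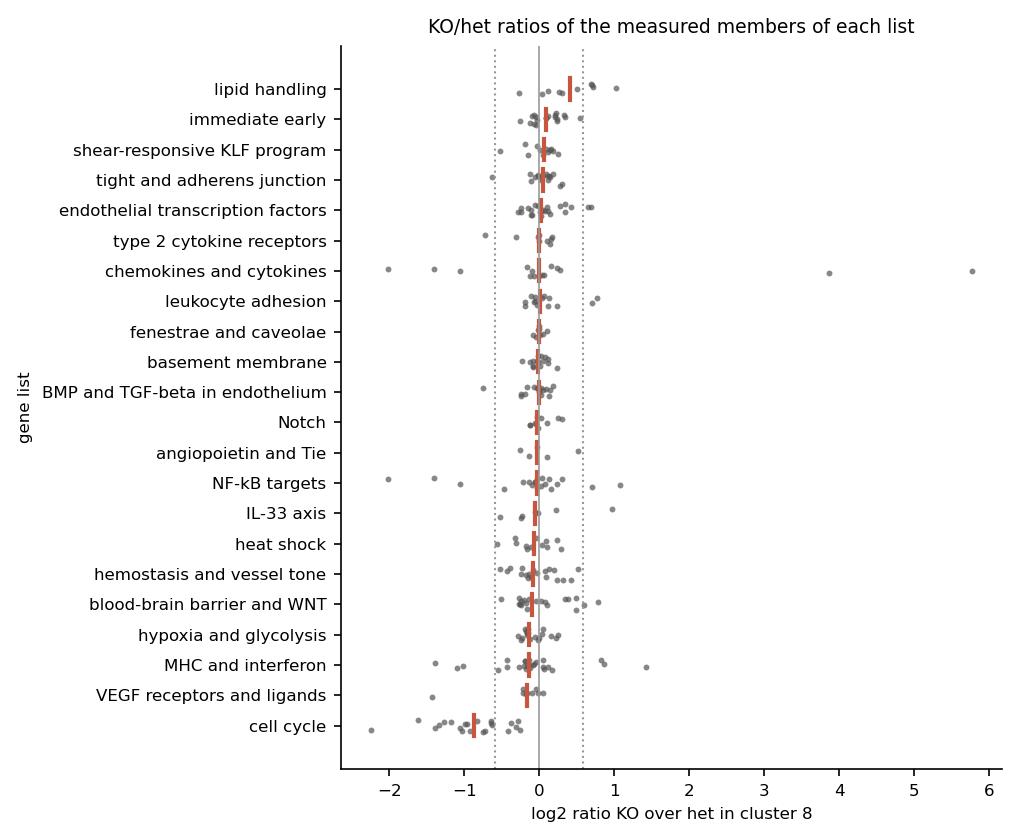
Log2 ratio of KO over het in cluster 8 for each measured member (points) of the 22 pathway lists, ordered by list median (red bar); dotted lines mark 1.5-fold and the vertical jitter carries no value. The cell cycle list lies to the left with a median of -0.88, lipid handling lies furthest right at 0.41, and the other 20 medians lie between -0.16 and 0.09.

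Il33 itself (chromosome 19, 29925114 to 29960718, plus strand, GRCm38) was almost silent in these cells. It gave 14 UMIs in 8 het cells and 1 UMI in 1 KO cell, 5.40 and 0.469 CPM, a ratio of 0.0868 (0.00205 to 0.571). Cells with an Il33 UMI were 3.07% and 0.442% of endothelial cells against 0.929% and 0.724% of cluster 1 cells, so the KO share is read as background. Over all other clusters together Il33 stood at 44.7 CPM in het against 9.89 in KO, giving a ratio of 0.221 (0.206 to 0.238), and it was lower in KO in 11 of the 11 clusters with enough UMIs. In cluster 0, where it was highest, it stood at 110 and 24.5 CPM, so the libraries follow their labels at the targeted gene. The labels do not say where the counted reads lie relative to the inserted reporter. Il1rl1, which encodes ST2, was found in 4 het and 2 KO endothelial cells, with 10 of 13 and 20 of 21 UMIs in 1 cell of each library. The rest of the pathway was expressed at low levels. Irak1, a kinase of the IL-1 receptor complex, stood at 61.7 and 52.5 CPM, and Myd88, the adaptor, at 27.8 and 23.4. Sigirr, an inhibitory receptor of the family, stood at 37.8 and 44.1 CPM, and the interval of each of these 3 ratios included 1.

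Receptors through which type 2 cytokines could act on endothelium were present in both libraries, and most genes of their list differed by less than 1.5-fold. Il4ra, the shared chain of the IL-4 and IL-13 receptors, stood at 41.3 CPM in het against 33.3 in KO, giving a ratio of 0.806 (0.589 to 1.10). Il13ra1, its partner chain, stood at 27.0 and 29.1 CPM. The kinase Jak1 stood at 198 CPM in each library. Over the 9 measured genes of that list 6 were higher and 3 lower in KO, with a median log2 ratio of 0.00. At least 1.5-fold lower was 1 of the 9, at a log2 ratio of -0.72, where 6.78% of all measured genes were, and 0 were 1.5-fold higher.

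A few interferon-induced genes were lower in the KO library. Rsad2, which encodes the antiviral enzyme viperin, was higher in cluster 8 than in any other cluster in both libraries. It stood at 72.2 CPM (62.2 to 83.3) in het against 35.6 CPM (28.1 to 44.6) in KO, giving a ratio of 0.494 (0.373 to 0.648). Ifit1 and Ifit3, which encode proteins that bind foreign RNA, had ratios of 0.466 (0.290 to 0.730) and 0.382 (0.225 to 0.624). Isg15, a ubiquitin-like modifier, had a ratio of 0.681 (0.551 to 0.840). The promoters of these 4 genes are shown because the genes are the lowest by ratio in the MHC and interferon list, so they were chosen with their values known. They were searched for the core of the interferon-stimulated response element, which the interferon-activated factors bind. Each run is the 250 bases before the RefSeq gene start, 5' to 3' on the gene's own strand (GRCm38.p6). They are chr19:34583279-34583528 (plus strand) for Ifit3, chr19:34640639-34640888 (plus) for Ifit1, chr12:26456453-26456702 (minus) for Rsad2 and chr4:156200819-156201068 (minus) for Isg15. Capitals mark each match to the motif searched, which is GAAA, 2 bases of any kind and again GAAA, on either strand.
Ifit3: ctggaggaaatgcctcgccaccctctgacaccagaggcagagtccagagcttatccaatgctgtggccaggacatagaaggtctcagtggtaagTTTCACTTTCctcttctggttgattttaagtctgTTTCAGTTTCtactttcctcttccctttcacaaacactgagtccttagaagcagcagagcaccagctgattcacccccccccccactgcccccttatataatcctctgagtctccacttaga
Ifit1: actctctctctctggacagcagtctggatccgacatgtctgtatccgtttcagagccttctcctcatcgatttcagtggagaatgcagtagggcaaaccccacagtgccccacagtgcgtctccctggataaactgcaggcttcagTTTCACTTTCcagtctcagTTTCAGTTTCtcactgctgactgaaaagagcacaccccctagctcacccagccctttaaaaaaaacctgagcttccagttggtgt
Rsad2: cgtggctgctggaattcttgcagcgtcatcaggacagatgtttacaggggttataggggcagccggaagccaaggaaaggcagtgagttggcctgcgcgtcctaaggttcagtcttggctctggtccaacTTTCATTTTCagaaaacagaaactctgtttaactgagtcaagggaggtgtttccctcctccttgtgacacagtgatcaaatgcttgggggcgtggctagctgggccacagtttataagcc
Isg15: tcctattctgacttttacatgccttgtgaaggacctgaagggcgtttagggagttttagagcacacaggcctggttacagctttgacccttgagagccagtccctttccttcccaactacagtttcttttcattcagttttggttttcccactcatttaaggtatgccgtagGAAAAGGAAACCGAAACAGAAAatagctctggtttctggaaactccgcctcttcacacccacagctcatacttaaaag

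Ifit3 and Ifit1 had 2 matches each, Rsad2 had 1, and Isg15 had 3 that overlap each other. Of 32851 promoters of the same length in RefSeq, 978 (2.98%) held the motif. Of the 26 genes of the MHC and interferon list, 19 matched an entry, with 23 promoters between them, and 7 of the 23 (30.4%) held it, those of B2m, Bst2, Gbp2, Ifit1, Ifit3, Isg15 and Rsad2. A match is a description of these letters and not evidence of binding. The 7 genes had ratios from 0.382 for Ifit3 to 0.973 for B2m, the light chain of MHC class I.

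Both sexes showed the lower Rsad2, with 92.0 CPM in het against 44.1 in KO female cells and 50.3 and 28.8 in male cells. Ifit1 was at 37.5 and 24.2 CPM in female and 17.8 and 4.23 in male cells. Ifit3 was at 40.5 and 11.6 CPM in female and 12.2 and 9.31 in male cells. The direction was thus shared, while the size differed between genes and sexes. An Rsad2 UMI was found in 20.3% of the het cells and in 11.9% of the KO cells, or 6.69% and 3.84% after thinning each cell to 1000 UMIs, against 0.310% and 0.362% of cluster 1 cells. The transcripts were concentrated in sub-cluster 1. There Rsad2 stood at 213 and 144 CPM, Ifit3 at 87.4 and 17.8 and Isg15 at 209 and 97.8. The lower Rsad2 was not particular to endothelium: over all other clusters its ratio was 0.516 (0.463 to 0.575), and it was at least 1.5-fold lower in 7 of the 12 other clusters with enough UMIs, which are cells of the same 2 libraries.

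The whole MHC and interferon list moved less. Of its 26 measured genes 18 had a ratio below 1 and 8 above, beside 51.6% below 1 among all measured genes. At least 1.5-fold lower were 3 of the 26, against 6.78% of all measured genes, and at least 1.5-fold higher were 3, against 5.07%. The median was -0.14, and 12 of 26 were below 1 in both sexes, against 26.5% of all genes. Abundant members differed little. Ifitm3, which restricts viral entry, stood at 1379 CPM in het against 1205 in KO, giving a ratio of 0.874 (0.831 to 0.920). Ly6c1 had 707 and 798 CPM, and the class I genes H2-K1 and H2-D1 had ratios of 0.890 and 1.05. The 3 genes past 1.5-fold higher were the class II genes Cd74 (33.6 and 59.5 CPM), H2-Ab1 (9.26 and 16.9) and H2-Eb1 (7.33 and 19.7). Cd74 was detected in 13.8% and 19.0% of endothelial cells against 66.4% and 71.2% of cluster 1 cells, and 26 het and 33 KO cells of cluster 8 held at least 3 immune markers. Without those cells the ratio of Cd74 was 1.23, below the call, while H2-Ab1 at 1.56 and H2-Eb1 at 1.54 stayed past it and H2-Aa went from 1.08 to 0.544. Without sub-clusters 7 and 9 Cd74 was at 2.01, H2-Ab1 at 2.19 and H2-Eb1 at 2.05. The log2 ratio of Rsad2 lay between -1.07 and -0.70 over all 14 alternatives tried.

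Most genes of the lipid handling list were higher in the KO library. Of 10 measured members of the lipid handling list 9 had a ratio above 1, where 48.4% of all measured genes did. At least 1.5-fold higher were 4, where 5.07% of all genes were, and 0 were at least 1.5-fold lower. Above 1 in both sexes were 5 of the 10, where 23.6% of all genes were. The list's median was 0.41, against -0.01 for all genes. Lpl, the lipase that frees fatty acids from circulating lipoproteins, stood at 25.9 CPM in het against 52.5 in KO, giving a ratio of 2.03 (1.49 to 2.79). Gpihbp1, its endothelial anchor, stood at 492 and 698 CPM, a ratio of 1.42 (1.32 to 1.53), or 1.43 for female and 1.44 for male cells. Fabp5, a fatty acid binding protein, stood at 109 and 179 CPM, a ratio of 1.64 (1.40 to 1.91). Pparg, the nuclear receptor that controls many of these genes, stood at 14.3 and 23.4 CPM, a ratio of 1.64 (1.05 to 2.58). Cyp26b1, the other member past 1.5-fold, had a ratio of 1.62. The scavenger receptor Cd36 had a ratio of 1.20 (1.03 to 1.38). Tcf15, a factor of the fatty acid transport program in capillaries, was the 1 member below 1, at 0.828 (0.653 to 1.05).

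Not every lipid gene moved alike in the sexes or in the sub-clusters. Fabp4, the most abundant, stood at 1708 and 2114 CPM, with a ratio of 0.906 in female and 1.89 in male cells. The ratio of Lpl was 2.74 in female and 1.45 in male cells, and that of Fabp5 was 1.97 and 1.34. The median over the 10 measured genes of the list was 0.18 in female and 0.48 in male cells. Macrophage markers also went opposite ways, with a median of -1.16 in female and 1.92 in male cells, and their part in these values was not tested. Without the cells of at least 3 immune markers the ratio of Fabp4 was 0.995 and that of Pparg 1.49, while Lpl was at 1.58, Fabp5 at 1.68 and Gpihbp1 at 1.35, and the list's median was 0.40. Within sub-cluster 6 Fabp5 stood at 106 CPM in het against 566 in KO and Fabp4 at 2157 and 5122. Within venous-like sub-cluster 2 the levels of Fabp4 were close, 4080 and 4210 CPM, while Fabp5 stood at 136 and 322 and Lpl at 62.6 and 110. Over the other 21 clusters the median of the list ran from -0.42 in cluster 2 to 0.63 in cluster 19, from 2 to 9 measured genes, and clusters 12 and 19 had a higher median than cluster 8. Over all clusters other than 8 Lpl had a ratio of 1.08 (1.03 to 1.13) and Fabp5 of 0.917 (0.894 to 0.940). The difference between these and cluster 8 was not tested.

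First among the genes higher in KO by the naming rule given below was Efna1 (chromosome 3, 89271733 to 89281142, minus strand, GRCm38), which encodes ephrin-A1, a membrane ligand of Eph receptors. It stood at 98.0 CPM (86.3 to 111) in het against 175 CPM (158 to 194) in KO, giving a ratio of 1.78 (1.52 to 2.10). The level was 91.3 and 203 CPM in female cells and 105 and 152 CPM in male cells. In arterial-like sub-cluster 5 it stood at 164 CPM in het against 436 in KO, and in sub-cluster 1 at 173 against 269. Sub-clusters 2 and 3 were lower in both libraries, at 43.8 and 54.0 and at 54.2 and 39.3 CPM. In all other clusters together Efna1 stood at 5.65 CPM in both libraries. It was detected in 0.155% and 0.241% of cluster 1 cells against 52.9% and 58.0% of endothelial cells.

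Cell cycle genes were lower in the KO library as a group, and most of their UMIs came from few cells. All 22 measured members had a ratio below 1, and 17 were at least 1.5-fold lower, where 6.78% of all genes were. The median was -0.88, and 19 of 22 were below 1 in both sexes. Top2a, a topoisomerase needed for mitosis, stood at 81.0 CPM in het against 30.9 in KO, giving a ratio of 0.382 (0.285 to 0.506). Rrm2, a subunit of the enzyme that makes deoxynucleotides, stood at 26.6 and 5.63 CPM. Hmgb2, a chromatin protein of cycling cells, stood at 448 and 266 CPM, a ratio of 0.593 (0.536 to 0.657). Of the 210 het and 66 KO UMIs of Top2a, 254 lay in sub-cluster 7, where its level was 665 CPM in het against 787 in KO. In every other sub-cluster Top2a was at 28.3 CPM or less. Within sub-cluster 7 12 of 22 genes were below 1 and the median was -0.12. It held 15 het and 6 KO cells, and of these 21 cells 13 held at least 3 immune markers, and the B cell gene Cd79a stood at 364 and 787 CPM. Without sub-clusters 7 and 9, 7 of 14 measured genes were below 1 and the median was 0.03. All 22 genes were at least 2-fold higher in sub-cluster 7 over the pooled libraries. Leaving it out lowers their counts by construction, so this removal is no test of the difference. The part of the B cell and leukocyte RNA in the difference was not tested. The list was also lower in some other clusters of these libraries. In clusters 13 and 9, 22 of 22 genes were below 1, with medians of -0.68 and -0.47. In clusters 3 and 0, 21 of 22 were, with medians of -0.51 and -0.44. The median was above 0 in clusters 1, 2, 7, 10, 14, 15, 16, 20 and 21, and highest in cluster 15, at 2.73. The difference between these clusters and the endothelial cells was not tested.

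Counting cells did not show a difference beyond counting error. UMIs of at least 3 of 12 cycling markers were found in 19.5% of het against 23.0% of KO endothelial cells, a ratio of 1.18 (0.785 to 1.77). With at least 6 markers the shares were 4.60% and 2.21%, a ratio of 0.481 (0.133 to 1.47), and with at least 10 they were 3.45% and 0.885%, a ratio of 0.257 (0.0270 to 1.24). The ratio was below 1 at every minimum from 4 to 10, and every interval included 1. The same held without the cells of at least 3 immune markers, except that the ratio at a minimum of 4 was 1.03.

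**Figure D5:**
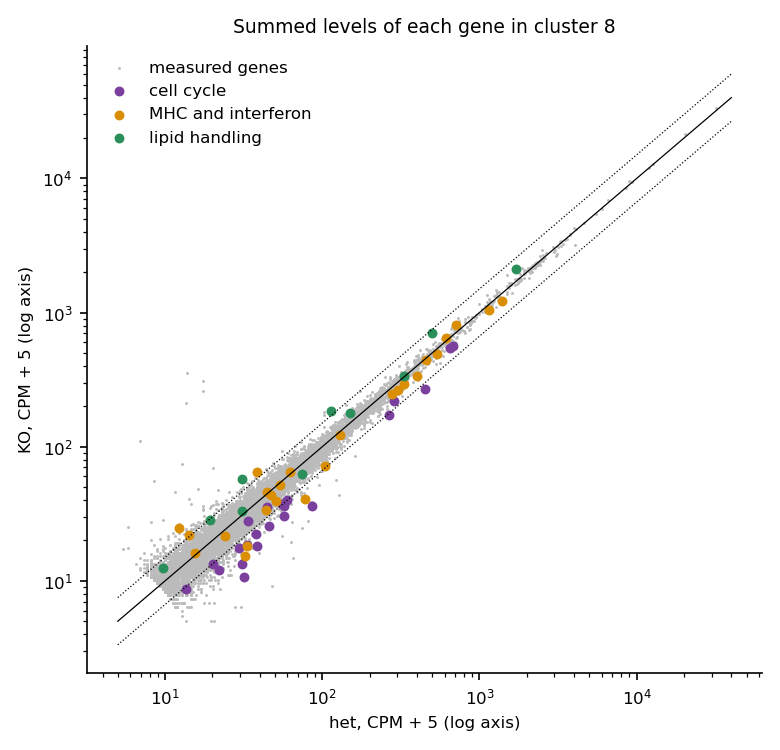
Level of each of the 10520 measured genes in cluster 8, as CPM + 5 on log axes, in het (x) against KO (y); the solid line marks equality and the dotted lines 1.5-fold. The 22 cell cycle genes (purple) lie below the line, 9 of 10 lipid handling genes (green) lie above it, and the MHC and interferon genes (orange) lie mostly below it.

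VEGF and angiopoietin receptors, on which vessel growth and upkeep depend, differed little. Of 9 measured genes of VEGF receptors and ligands 8 were below 1, with a median of -0.16. At least 1.5-fold lower was 1 of the 9, where 6.78% of all measured genes were. Flt1 had a ratio of 0.864 (0.819 to 0.911) and the co-receptor Nrp1, at 871 and 746 CPM, one of 0.857 (0.803 to 0.914). Kdr, the main signalling receptor, stood at 720 and 702 CPM, a ratio of 0.974 (0.910 to 1.04). The member past 1.5-fold was Pgf, placental growth factor, with 36 and 11 UMIs, of which 17 het UMIs came from 1 cell. In the angiopoietin and Tie list Tek stood at 225 and 204 CPM and Tie1 at 323 and 270, a ratio of 0.836 (0.751 to 0.931). The antagonist Angpt2 stood at 29.7 and 42.7 CPM, with 36 of 91 KO UMIs in 1 cell. None of the 10 measured Notch genes was past 1.5-fold, with a median of -0.02, or 0.30 in female and -0.30 in male cells. Notch1 stood at 213 and 218 CPM and Dll4 at 102 and 110. The BMP and TGF-beta list had a median of -0.01 over 17 genes, with the co-receptor Eng at 985 and 969 CPM and the target Id1 at 800 and 852.

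Barrier genes had medians near 0 over all cluster 8 cells. Of 17 measured junction genes 11 were above 1 and 6 below, with a median of 0.05. VE-cadherin (Cdh5) stood at 844 and 915 CPM, a ratio of 1.08 (1.02 to 1.15), and Cldn5 had a ratio of 1.21 (1.15 to 1.27), or 1.39 for female and 1.06 for male cells. Ocln, the gene of occludin, was the member past 1.5-fold, at 40.5 and 26.3 CPM, a ratio of 0.648 (0.460 to 0.905). That is 1 of 17, where 6.78% of all measured genes were at least 1.5-fold lower. Of the 8 measured genes of fenestrae and caveolae 0 were past 1.5-fold, with Plvap at 1.03 (0.982 to 1.09) and Cav1 at 1.01 (0.925 to 1.09). In the blood-brain barrier and WNT list 9 of 20 were above 1 and 11 below, with a median of -0.10. At least 1.5-fold higher were 2 of the 20, where 5.07% of all measured genes were. They were the organic anion transporter Slc22a8, at 26.2 and 45.0 CPM, a ratio of 1.72 (1.24 to 2.38), and Mfsd2a, at 28.2 and 42.7 CPM, a ratio of 1.51 (1.10 to 2.09). Both were found in few cells, with 20 and 16 cells for Slc22a8 and 14 in each library for Mfsd2a. Leaving out the 1 richest cell of each library left the ratio of Slc22a8 at 1.42, under the fold used for a call. These list values depend on which cells are kept. Removing every cell with at least 3 immune, 3 fibroblast or 3 pericyte markers left 97 het and 31 KO cells, in which 17 of 19 measured blood-brain barrier and WNT genes were lower in KO and 11 of these were past 1.5-fold. The median of that list was then -0.85. In the same cells 5 of 10 Notch genes were at least 1.5-fold higher and 2 lower, with a median of 0.65. In them 853 and 957 of all 6276 measured genes were at least 1.5-fold higher and lower.

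Genes by which vessels hold leukocytes did not shift as a group. Of 14 measured adhesion genes 7 were above 1 and 7 below, with a median of 0.00. At least 1.5-fold higher were 2 of the 14, where 5.07% of all measured genes were. Icam1 stood at 240 and 231 CPM and Vcam1 at 165 and 162. The 2 past 1.5-fold were Sele, E-selectin, at 38.6 and 62.8 CPM with a ratio of 0.793 in female and 2.36 in male cells, and Ackr1, the chemokine-binding receptor of venules, at 25.5 and 43.6 CPM with 2.17 and 1.40. Leaving out the richest cell of each library left Ackr1 at 1.39. The stem cell factor Kitl (268 and 256 CPM) and the chemokines Cxcl12 (651 and 596) and Cxcl1 (95.3 and 106) were close. Cxcl2, a neutrophil attractant, was lower in KO, at 58.6 and 14.5 CPM, a ratio of 0.248 (0.163 to 0.367). Of its 152 het UMIs 71 came from 1 cell, and the ratio without the richest cells was 0.374. The extremes of this list came from single cells: 167 of 225 KO UMIs of Ccl21a, 106 of 108 KO UMIs of Ccl7 and 122 of 154 het UMIs of Ccl2. Among 20 NF-kB targets 9 were above 1 and 11 below, with a median of -0.03. Tnfaip3, which restrains NF-kB signalling, stood at 14.7 and 30.9 CPM, and was detected in 10.7% and 13.3% of endothelial cells against 21.5% and 24.2% of cluster 1 cells. Without the cells of at least 3 immune markers its log2 ratio went from 1.08 to 0.30, below the call, and over the other clusters together its ratio was 0.529 (0.504 to 0.555).

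Genes of vessel tone, flow and identity come next. Of 19 measured genes of hemostasis and vessel tone 0 were past 1.5-fold. In the 97 het and 31 KO cells left by removing cells with immune, fibroblast or pericyte markers, 3 of 17 were at least 1.5-fold higher and 9 lower, with a median of -0.94. Of all 6276 measured genes in those cells, 853 were at least 1.5-fold higher and 957 lower. Calcrl, the receptor of adrenomedullin, stood at 317 and 234 CPM, a ratio of 0.739 (0.660 to 0.827), or 0.735 for female and 0.744 for male cells. Nos3, endothelial nitric oxide synthase, stood at 98.8 and 68.5 CPM, a ratio of 0.693 (0.562 to 0.853), and Vwf at 856 and 730. Calcrl and Nos3 were thus lower in KO by less than 1.5-fold. Ptgis, which makes prostacyclin, stood at 47.5 and 68.0 CPM, a ratio of 1.43 (1.12 to 1.84). Of 23 endothelial transcription factors 14 were above 1 and 9 below. Sox18 stood at 244 and 326 CPM, a ratio of 1.34 (1.20 to 1.49), or 1.30 for female and 1.41 for male cells, and Sox17 at 161 and 204 CPM, a ratio of 1.27 (1.11 to 1.46). Prox1 and Foxc2, linked to lymphatic vessels, were the 2 past 1.5-fold, from 33 and 44 UMIs and 27 and 35 UMIs. Both were higher in KO, where 5.07% of all measured genes were at least 1.5-fold higher. Basement membrane genes had a median of -0.01, with Col4a1 at 2463 and 2489 CPM.

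The arterial and venous lists had medians near 0 over all cells and opposite signs in the sexes, a difference that was not tested. The arterial list had a median of 0.10 (female cells 0.59, male cells -0.54). Gja4 stood at 120 CPM in each library, with a ratio of 1.57 in female and 0.673 in male cells. The venous list had a median of -0.10 (female cells -0.40, male cells 0.23). The arterial-like sub-cluster 5 held 10.9% of het and 16.3% of KO female cells, and 13.0% and 8.20% of male cells. The part of these cell numbers in the list medians was not tested.

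By a rule for named genes (at least 100 UMIs, a UMI in at least 10% of the cells of 1 library, at least 1.5-fold, and 1 direction in both sexes), 48 genes were higher and 86 lower in KO. Before the rules on cells and sexes, 75 (1.21%) of the 6194 genes with at least 100 UMIs were at least 1.5-fold higher and 120 (1.94%) lower. Among the first 12 higher were Efna1, Lpl, S100a9, Fabp5, Tnfaip3, Dnaja4, Chn2, Cd74, Fmo2, Cda and Casp8ap2. The first 12 lower were Matn4, Meg3, Rsad2, Hmgb2, Serpina3g, Cdk1, Ezh2, Stmn1, Lyar, Col8a1, Prom1 and Fxyd6. S100a9, a neutrophil gene, was detected in 15.3% and 27.4% of endothelial cells against 10.8% and 15.9% of cluster 1 cells, and after thinning in 1.71% and 4.07% against 2.78% and 4.29%, so it is read as background. Dnaja4, a co-chaperone, stood at 14.3 and 30.0 CPM, a ratio of 2.10 (1.38 to 3.24), and Fmo2, a flavin monooxygenase, at 16.6 and 32.4 CPM, a ratio of 1.95 (1.31 to 2.92). Over the other clusters these 2 had ratios of 0.999 (0.887 to 1.12) and 1.06 (0.959 to 1.17).

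Among the lower genes some rested on single cells and some did not. Of the 131 het UMIs of Matn4, a cartilage matrix gene, 102 came from 1 cell, and of the 306 of Meg3, a long noncoding RNA, 126 did. Without sub-clusters 7 and 9 the log2 ratios of Hmgb2, Ezh2 and Stmn1 were 0.14, 0.03 and 0.07. Hmgb2 and Stmn1 are among the genes that mark sub-cluster 7, so this removal is no test of them. Serpina3g, a serine protease inhibitor, stood at 89.9 CPM in het against 46.9 in KO, giving a ratio of 0.522 (0.408 to 0.662), or 0.427 for female and 0.611 for male cells. It was concentrated in venous-like sub-cluster 2, at 353 and 172 CPM, and in sub-cluster 3, at 108 and 45.9 CPM. Prom1, the membrane protein prominin-1, stood at 199 and 88.5 CPM in sub-cluster 3 and at 115 and 97.4 in sub-cluster 5. Fxyd6, a regulator of the sodium pump, stood at 29.7 and 14.5 CPM over the cluster. Among the named genes, Dnaja4, Fmo2, Rsad2, Serpina3g and Fxyd6 were past 1.5-fold in the same direction in 14 of 14 alternatives.

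RNA of other cell types was present in cluster 8 and differed between the libraries for some lists. Fibroblast markers summed to 1693 CPM in het against 1586 in KO, and at least 3 of the 8 were detected in 150 of 261 het but 187 of 226 KO cells. Col1a1, a collagen chain, was detected in 83.9% and 95.6% of endothelial cells and in 84.1% and 95.2% of cluster 1 cells, so its share is read as background. The other sums were 593 and 461 CPM for B lineage, 224 and 258 for erythroid, 203 and 242 for macrophage, 192 and 105 for pericyte and 114 and 107 for leukocyte markers. Lower sums were 89.9 and 68.0 for glia and neuron, 59.4 and 53.0 for platelet, 47.5 and 40.8 for smooth muscle, 36.3 and 67.5 for neutrophil lineage, 28.9 and 47.8 for osteolineage and 14.3 and 35.2 CPM for arachnoid barrier markers. At 0 UMIs in both libraries were Dpt of the fibroblast, Cnn1 of the smooth muscle, Ppbp of the platelet and Cdh1 of the arachnoid list. The pericyte gene Rgs5 had 319 and 82 UMIs, of which 243 het UMIs came from 1 cell. Macrophage markers had a median of 0.43 (female cells -1.16, male cells 1.92). Beyond leaving out cells that hold immune, fibroblast or pericyte markers, their part in the differences was not tested. That removal rests mostly on fibroblast markers, and with Col1a1 read as background it cannot be taken to keep the cleaner cells. The part of free RNA and depth in it was not tested.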

How the data were processed

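Droplet single-cell RNA sequencing was done on dural cells of mice at postnatal day 14, with 1 library per genotype. The authors' UMI counts came from Cell Ranger 3.0.2, per the file headers, with mm10 named in the submitters' processing notes. The deposited table holds the counts of 19347 genes in 12544 annotated cells. Percent mitochondrial UMIs, clusters and sex labels are the authors' deposited cell metadata. How the authors filtered and integrated the cells is not stated in the labels or headers. Of 1458576 values above 0 in cluster 8, 57 differed from the deposited matrices. With 1 library per genotype no test between genotypes was made.

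UMIs were summed over the cluster 8 cells of each library, and KO over het ratios were given with conditional binomial 95% intervals, while shares carry exact Clopper-Pearson intervals. These cover counting error only. Genes were measured with at least 20 UMIs over both libraries and called at 1.5-fold, and a library at 0 was set to a floor of 3 counts. A list is described by its counts and median. Sub-clusters came from 2000 variable genes, 15 principal components, 15 neighbours and Leiden clustering at resolution 0.5 (scanpy 1.11.5, igraph 0.11.9) and were named only where a listed marker set was at least 2-fold higher with 5 CPM added. Scrublet scores were computed, and no doublet was removed. For thinning, cells were reduced to 1000 UMIs, which left out 3 het cells and 1 KO cell. TMM factors came from edgeR 4.0.16. The interval and ratio code was tested on simulated data.

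The named genes were the first 12 in each direction among genes with at least 100 UMIs, a UMI in at least 10% of the cells of 1 library, at least 1.5-fold and the same direction in both sexes, ranked by the interval bound nearest to 1; mitochondrial, ribosomal protein, hemoglobin, antigen receptor, sex-linked marker and predicted genes were left out. The members and gene lists were chosen with earlier results of these data known. Chosen after their values were seen were the leading-gene rule of 20%, the immune marker set without Ebf1, the sub-clusters left out, the pairs of genes compared over cells, the range of cycling marker minimums, the promoters shown and the values over other clusters. Some genes that met these rules are not reported here.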

Additional observations from a re-analysis of the deposited data

Results flagged for a closer look

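The KO over het ratio of 3 genes went past 1.5-fold in opposite directions in female and male cells, with both intervals beyond 1.5-fold, a threshold chosen after the values were seen. The difference between the sexes itself was not tested. Gja5, the arterial connexin, had a ratio of 2.56 (1.59 to 4.18) in female cells, at 21.4 and 54.6 CPM, and of 0.0950 (0.0186 to 0.303) in male cells, at 26.8 and 2.54 CPM. C1qb, a complement gene of macrophages, had a ratio of 0.201 (0.0878 to 0.405) in female cells, at 47.1 and 9.46 CPM, and of 4.06 (1.91 to 9.61) in male cells, at 7.30 and 29.6 CPM. Pf4, a chemokine of platelets and macrophages, had a ratio of 0.232 (0.122 to 0.411) in female cells and of 2.39 (1.51 to 3.87) in male cells. These intervals leave out the spread between cells, and few cells held such RNA. At least 3 of 8 macrophage markers were detected in 7 het and 13 KO cells. Of that list 1 cell held 163 UMIs in het and 1 held 127 in KO. Of the platelet list 1 cell held 52 UMIs in het and 1 held 30 in KO. The low Gja5 level in male KO cells rests on few UMIs.

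Barcodes outside the annotated cells also held endothelial RNA. UMIs of at least 5 of 17 pan-endothelial markers were found in 103 unannotated het barcodes and 119 unannotated KO barcodes, beside 260 of 261 and 224 of 226 cluster 8 cells. The same minimum was met by 112 and 108 annotated cells of other clusters. In the unannotated barcodes Plvap stood at 100 and 114 CPM, the median depth was 4582 and 4316 UMIs, and the median mitochondrial share was 11.7% and 16.2%.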

How the results depend on the processing

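Over the alternatives, 64 values of the main results kept within the limits set for a change, 13 moved and 1 reversed. The count of genes at least 1.5-fold higher in KO was 2484 with a minimum of 1 UMI, 207 with 50 UMIs and 853 without cells holding 3 markers of immune cells, fibroblasts or pericytes, which removed 164 het and 195 KO cells. The count lower was 2298 and 327 with those 2 minimums. The median of the cell cycle list was -0.42 with each cell weighing equally, -0.53 without the 10% of cells with the highest Scrublet scores, -0.28 without the cells of the 3-marker rule, -1.23 in female and -0.51 in male cells, -0.01 without sub-clusters 4, 7 and 9, and, in alternatives chosen after seeing the data, -0.54 without cells of 3 immune markers and 0.03 without sub-clusters 7 and 9. The lipid handling median stayed between 0.18 and 0.60 and that of MHC and interferon between -0.22 and -0.01. Other lists moved more. Under the 3-marker rule, which left 97 het and 31 KO cells, the median went from -0.10 to -0.85 for blood-brain barrier and WNT, from -0.09 to -0.94 for hemostasis and vessel tone, from -0.02 to 0.65 for Notch and from 0.09 to -0.47 for immediate early genes. The share of cluster 8 cells gave a ratio of 0.781 among annotated cells, 0.900 outside the lymphoid and stromal clusters and 0.943 per mural cell.

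Among named genes, 13 log2 ratios reversed. They were Matn4 at 0.23 without the richest cell of each library and 0.93 under the 3-marker rule, Meg3 at 0.12 without high Scrublet scores and 0.64 under the 3-marker rule, and S100a9 at -0.07, Cda at -0.53 and Col8a1 at 0.98 under the 3-marker rule. Without sub-clusters 4, 7 and 9 Hmgb2, Ezh2 and Stmn1 were at 0.02, 0.20 and 0.07, and without 7 and 9 at 0.14, 0.03 and 0.07. The causes were not tested. No paired analysis was possible because each genotype is 1 library. Depth limits genes under 20 UMIs, which were not measured.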
